A study of Homo sapiens with 12 samples.

Results

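HLA class I presentation was followed through 9 genes, which were listed by gene symbol under a rule that uses no measured value, although earlier results of these data were known when the list was made: the heavy chain genes HLA-B, HLA-C, HLA-E and HLA-F, the light chain gene B2M, the transporter genes TAP1 and TAP2, the tapasin gene TAPBP and the regulator NLRC5. They were 9 of 54127 genes counted, and all 9 were among the 14505 genes with enough reads to test. The RNA came from C4-2 cells, an androgen-responsive prostate cancer line derived from LNCaP. One group of 6 libraries was treated with DMSO, the vehicle, and the other group of 6 libraries with 1 µM PBKi (HI-TOPK32, a small molecule inhibitor of PDZ binding kinase), each for 6 h in RPMI with serum. RNAseq was used in the study to ask how loss of PBK activity changes the transcriptome of prostate cancer cells. No source names separate cultures behind the 6 libraries of a group, so p-values measure the spread between libraries of a single cell line.

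A class I molecule is a heavy chain held at the cell surface together with beta-2 microglobulin, the product of B2M, and a short peptide. Proteasomes cut cytosolic proteins into peptides, the TAP1 and TAP2 proteins form the pump that carries them into the endoplasmic reticulum, and tapasin ties the empty heavy chain to that pump while peptides are exchanged. NLRC5 is the transactivator of class I genes, acting with RFX, CREB/ATF and NFY proteins at a shared promoter module, and interferon acts on the same promoters through interferon regulatory factors such as IRF1. Loss of class I expression is a known route by which tumours, including those of the prostate, avoid cytotoxic T cells.

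The libraries held 9663203 to 28029908 reads on genes in DMSO and 13122415 to 22817803 in PBKi. Reads outside genes made up 5.74% to 6.96% of uniquely aligned reads in DMSO and 5.94% to 9.30% in PBKi. Replicates 1 to 3 stood apart from replicates 4 to 6 in both groups. For each member that passed the test below, the change is therefore also given within these sets. The sums of the prostate markers KRT8, KRT18, EPCAM, KLK3, FOLH1 and HOXB13 were 3833 to 4394 CPM (read counts scaled to library size) in DMSO and 1875 to 2629 in PBKi. The fall of the sum lay in KLK3, a kallikrein gene, at 2959 CPM in DMSO and 1131 in PBKi. FOLH1 rose from 506 to 634 CPM, KRT18 and HOXB13 fell, and KRT8 and EPCAM did not pass the test, so these markers did not move together. Immune cell markers summed to 2.94 to 5.02 CPM in DMSO and 5.57 to 6.96 in PBKi, and of these 9 markers only CD68 had enough reads to test. CD68, which encodes a lysosomal protein, rose from 3.36 to 5.52 CPM (log2 fold change 0.68, adjusted p = 0.000642). PTPRC, the gene of the pan-leukocyte protein CD45, had at most 3 reads in any library, CD3E at most 1 and MS4A1 0 in all of them. Stromal and endothelial markers summed to 22.3 to 27.9 CPM in DMSO and 20.8 to 25.8 in PBKi. The part of these markers in the changes below was not tested, and in bulk RNA a shift in the share of a cell type cannot be told apart from a shift in RNA per cell.

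The promoters of B2M, HLA-B, TAP1, TAP2 and TAPBP are shown for the 250 bases before the transcription start. They run 5′ to 3′ on the strand of the gene, as RefSeq gives them. Windows were supplied for 7 of the 9 members, and those of HLA-C and HLA-F are not printed. Capitals mark AANNGAAA, the core bound by interferon regulatory factors, GGGNNTTCC and GGGNNNTTCC, forms of the kappaB site, TGACG, the core of the CREB/ATF site, and CCAAT, the NFY site, each searched on both strands, and the kappaB forms can overlap.

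B2M (GRCh38.p14 chr15:44711267-44711516, plus strand): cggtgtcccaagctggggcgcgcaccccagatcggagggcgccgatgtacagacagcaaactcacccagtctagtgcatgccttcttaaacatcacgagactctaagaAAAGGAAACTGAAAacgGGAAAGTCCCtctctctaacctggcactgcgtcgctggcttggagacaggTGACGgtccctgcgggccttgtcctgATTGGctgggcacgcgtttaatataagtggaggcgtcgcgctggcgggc
HLA-B (GRCh38.p14 chr6:31357180-31357429, minus strand): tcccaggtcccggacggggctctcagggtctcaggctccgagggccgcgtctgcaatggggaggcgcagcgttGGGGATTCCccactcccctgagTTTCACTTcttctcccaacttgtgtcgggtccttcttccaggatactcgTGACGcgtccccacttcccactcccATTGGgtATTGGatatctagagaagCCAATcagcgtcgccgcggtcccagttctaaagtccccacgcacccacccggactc
TAP1 (GRCh38.p14 chr6:32853705-32853954, minus strand): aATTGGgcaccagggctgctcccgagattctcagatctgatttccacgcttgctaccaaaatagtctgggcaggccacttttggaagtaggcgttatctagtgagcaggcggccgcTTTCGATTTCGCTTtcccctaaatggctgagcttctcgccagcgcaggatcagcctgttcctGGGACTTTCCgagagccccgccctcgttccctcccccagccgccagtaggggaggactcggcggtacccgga
TAP2 (GRCh38.p14 chr6:32838740-32838989, minus strand): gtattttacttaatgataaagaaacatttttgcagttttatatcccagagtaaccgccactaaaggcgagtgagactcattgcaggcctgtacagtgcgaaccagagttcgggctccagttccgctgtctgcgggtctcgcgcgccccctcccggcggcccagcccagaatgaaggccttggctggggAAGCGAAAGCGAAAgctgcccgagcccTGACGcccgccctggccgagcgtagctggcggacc
TAPBP (GRCh38.p14 chr6:33314079-33314328, minus strand): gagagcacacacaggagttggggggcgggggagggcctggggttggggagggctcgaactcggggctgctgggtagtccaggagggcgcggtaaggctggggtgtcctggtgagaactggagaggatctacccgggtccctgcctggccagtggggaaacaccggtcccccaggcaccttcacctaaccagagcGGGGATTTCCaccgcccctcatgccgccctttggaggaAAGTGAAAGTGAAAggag

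Over the supplied windows of 300 bases (250 before to 50 after a start), 22.8% of 35116 promoters held AANNGAAA, 6.58% held GGGNNTTCC, 6.52% held GGGNNNTTCC, 24.6% held TGACG and 34.6% held CCAAT. AANNGAAA was found in the windows of all 7 members, at -142 and -136 in B2M, -155 in HLA-B, -134 and -128 in TAP1, -62 and -56 in TAP2 and -18 and -12 in TAPBP, counting back from the start. HLA-B had the kappaB form, AANNGAAA, TGACG and CCAAT in that order between -177 and -56. HLA-C had AANNGAAA at -151, TGACG at -105 and CCAAT at -192, -95, -80 and -56, and no kappaB form. HLA-F had AANNGAAA at -156 and CCAAT at -82 and -57, and neither TGACG nor a kappaB form. HLA-C and HLA-F did not pass the test of change below. A second TAP1 start, whose window lies at GRCh38.p14 chr6:32852712-32853011, held none of these 5 motifs. These letters are matches only, chosen after the windows had been read, and say nothing of binding in these cells.

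With PBKi, 6 of the 9 members rose and 0 fell in the quasi-likelihood test of edgeR (adjusted p below 0.05), whereas 20.1% of all genes tested rose and 21.5% fell. The median log2 fold change was 0.18 over the 9 members and -0.01 over all genes tested. NLRC5, B2M, TAPBP and TAP1 had all 6 PBKi libraries above all 6 DMSO libraries, which was so for 10.5% of all genes, and no member had the reverse, which was so for 9.68%. The members therefore fell into those with separate groups, HLA-B and HLA-E with small rises and overlapping groups, and HLA-C, HLA-F and TAP2, which did not pass the test. The rises of HLA-B and HLA-E were both lost without DMSO replicate 3, which left 4 members called.

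**Figure D1:**
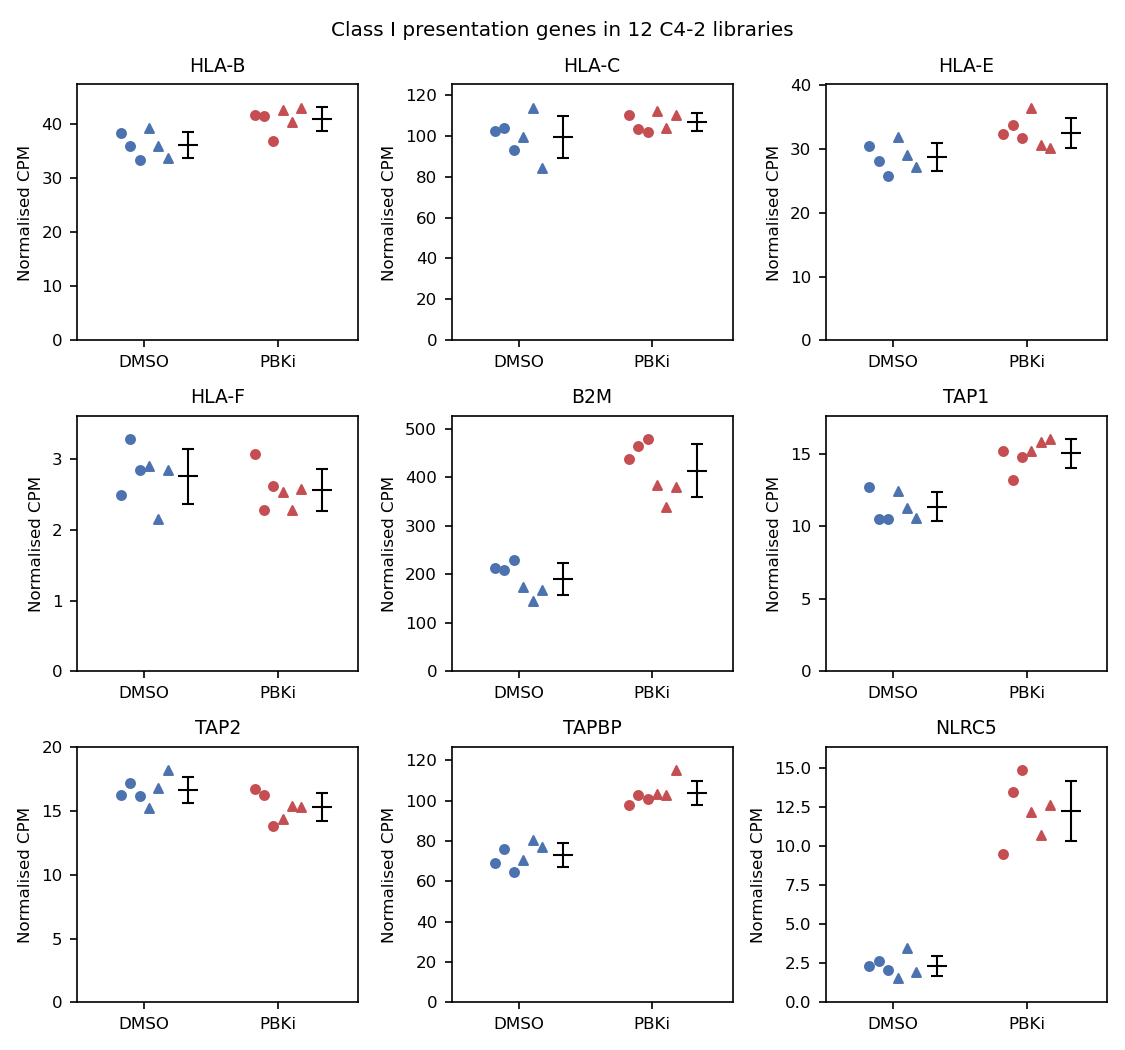
Normalised CPM of the 9 members in each of 12 libraries of C4-2 cells (y axis, from 0), with circles for replicates 1 to 3, triangles for replicates 4 to 6, and a bar for the mean ± SD of 6 libraries. The PBKi libraries lie above all DMSO libraries for NLRC5, B2M, TAPBP and TAP1, and the groups overlap for the other members.

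**Figure D2:**
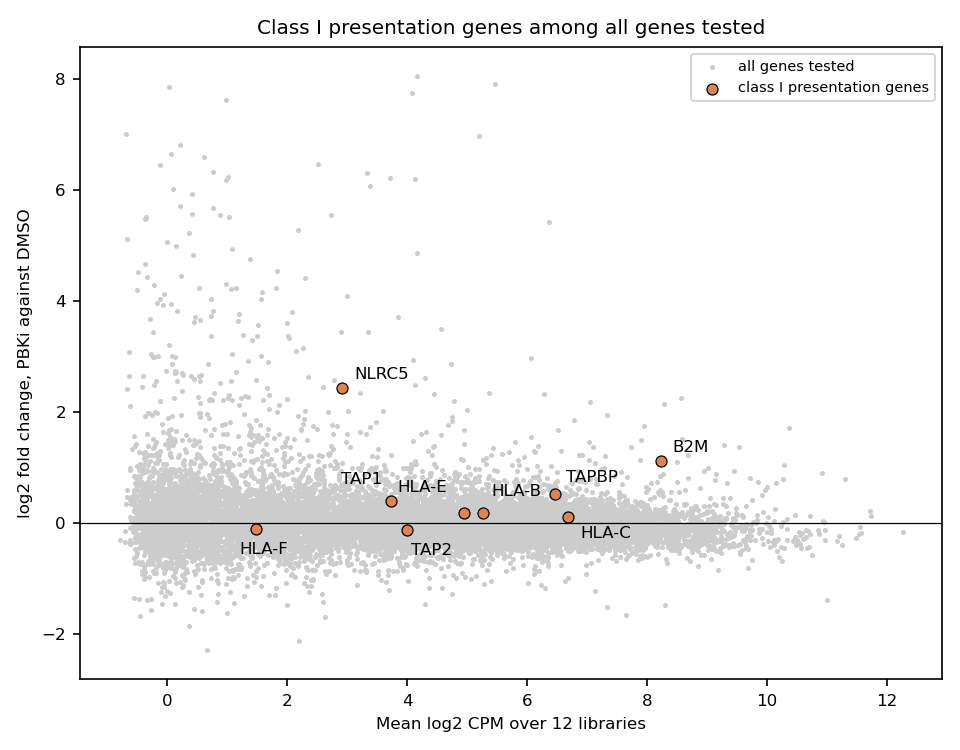
The log2 fold change of PBKi against DMSO (y axis) against the mean log2 CPM over 12 libraries (x axis) for the 14505 genes tested in grey, with the 9 members as labelled points. NLRC5 at 2.44 and B2M at 1.12 lie above most genes of their level, and the heavy chain genes lie near 0.

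Among the heavy chains, HLA-B and HLA-C encode classical molecules that present peptides to cytotoxic T cells, HLA-E displays leader peptides of other class I chains to the NKG2A receptor of natural killer cells, and HLA-F is a non-classical chain found largely inside the cell. HLA-B (ENSG00000234745, GRCh37 chr6:31321649-31334844, minus strand) lay between 33.2 and 39.3 CPM in DMSO, with a median of 35.9, and between 36.7 and 42.9 in PBKi, with a median of 41.5. The lowest PBKi library, replicate 3, fell inside the DMSO range. Its mean was 36.1 ± 2.41 CPM (SD, n = 6) in DMSO and 40.9 ± 2.24 (SD, n = 6) in PBKi, a difference of 0.18 on the log2 scale (log2 fold change, standard error 0.059; edgeR adjusted p = 0.0207; two-sided exact permutation test, p = 0.00866). For replicates 1 to 3 the log2 fold change was 0.16 (adjusted p = 0.0937) and for replicates 4 to 6 it was 0.20 (adjusted p = 0.126).

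HLA-E (ENSG00000204592, chr6:30457286-30461971, plus strand) had the same fold. Its libraries spanned 25.9 to 31.9 CPM in DMSO around a median of 28.6, and 30.2 to 36.5 in PBKi around a median of 32.1, so the groups overlapped. The means of 28.8 ± 2.20 and 32.5 ± 2.31 CPM (SD, n = 6 each) differed by 0.18 on the log2 scale (standard error 0.066; edgeR adjusted p = 0.0344; two-sided exact permutation test, p = 0.0173). Replicates 1 to 3 alone gave 0.23 (adjusted p = 0.0249) and replicates 4 to 6 alone gave 0.15 (adjusted p = 0.371). HLA-E lost its call when DMSO replicate 2 or 3 or PBKi replicate 2 or 4 was left out, with adjusted p up to 0.0876, and HLA-B lost its call without DMSO replicate 3 (adjusted p = 0.0532).

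HLA-C (ENSG00000204525, chr6:31236526-31239907, minus strand) did not pass the test. It lay between 84.2 and 114 CPM in DMSO and between 102 and 112 in PBKi, so that the PBKi libraries sat inside the wider DMSO range. The means were 99.3 ± 10.0 and 107 ± 4.50 CPM (SD, n = 6 each), and the 95% interval of its log2 fold change ran from -0.03 to 0.24 (adjusted p = 0.187). DMSO replicate 5, the shallowest library, held the highest HLA-C value of the 12 libraries, and without it the log2 fold change of 0.15 passed the test (adjusted p = 0.0356).

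HLA-F (ENSG00000204642, chr6:29690552-29706305, plus strand) was the heavy chain gene with the fewest reads, from 20 to 79 per library. Its CPM ranged from 2.16 to 3.29 in DMSO and from 2.28 to 3.08 in PBKi. The log2 fold change was -0.11 with a 95% interval from -0.38 to 0.16 (adjusted p = 0.507). The summed heavy chain reads were 167 ± 12.7 CPM in DMSO and 183 ± 7.60 in PBKi (SD, n = 6 each; two-sided exact permutation test, p = 0.0238).

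Heavy chain genes are near copies of one another, and reads of 40 bases that aligned to more than 1 place were not counted. In the reference transcripts, 24.8% of the stretches of 40 bases in HLA-B also occur in transcripts of another annotated gene, as do 11.7% of those in HLA-C, 9.01% in HLA-E and 38.3% in HLA-F. Both strands were searched, and a gene that overlaps at the same place counts as sharing, so these percentages do not measure the reads lost. The stretches of HLA-E occur in 351 other genes, so they are not only copies among heavy chains. The values of these genes are uncertain to an extent that was not measured, and reads from alleles unlike the reference may have been lost. In HLA-F, 42% of the exon bases of its canonical transcript are overlapped by exons of other genes on the opposite strand. These can be the same bases as in its shared stretches, and the strand setting of the counting is not given in the sources used here. B2M and NLRC5 shared 0 such stretches and were overlapped by no other exon.

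B2M (ENSG00000166710, chr15:45003556-45011049, plus strand), the invariant light chain shared by all class I molecules, rose more than any heavy chain. Its libraries lay between 146 and 230.3 CPM in DMSO (median 191) and between 338 and 479 in PBKi (median 410.1), with a wide gap between the groups. The means were 190.0 ± 32.7 and 414 ± 55.3 CPM (SD, n = 6 each), a 2.17-fold rise (log2 fold change 1.12, standard error 0.11, adjusted p = 2.7e-07 from edgeR; two-sided exact permutation test, p = 0.00216, the smallest that 6 against 6 libraries can give). This log2 fold change was larger than that of 97.2% of genes tested.

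Much of the spread of B2M within a group followed the replicate sets. In DMSO, replicates 1 to 3 lay between 209.8 and 230.3 CPM and replicates 4 to 6 between 146 and 173. In PBKi, replicates 1 to 3 lay between 437 and 479 CPM and replicates 4 to 6 between 338 and 383, so the sets kept apart after treatment too. The rise was seen within each set, at 1.09 on the log2 scale in replicates 1 to 3 (adjusted p = 3e-09) and 1.18 in replicates 4 to 6 (adjusted p = 2.51e-06).

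B2M reads made up 41.1% ± 5.10 of the reads on all 9 members in DMSO and 55.5% ± 3.71 in PBKi (SD, n = 6 each; two-sided exact permutation test, p = 0.00216). Read counts compared within a library need no scaling between libraries. For heavy chain reads (HLA-B, HLA-C, HLA-E and HLA-F) against B2M reads, the log2 ratio ranged from -0.57 to 0.31 in DMSO and from -1.47 to -0.93 in PBKi. It fell by 1.00 on the log2 scale (standard error 0.15; two-sided exact permutation test, p = 0.00216, 0.0146 after Benjamini-Hochberg adjustment over 9 ratios). The difference was -0.96 for replicates 1 to 3 and -1.03 for replicates 4 to 6.

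Neither of the ratios tested between single heavy chains passed, and the other pairs were not tested. The log2 ratio of HLA-B to HLA-C changed by 0.07 (standard error 0.056; two-sided exact permutation test, p = 0.245, adjusted 0.26), and that of HLA-E to HLA-F by 0.28 (standard error 0.13; exact p = 0.0606, adjusted 0.0909).

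**Figure D3:**
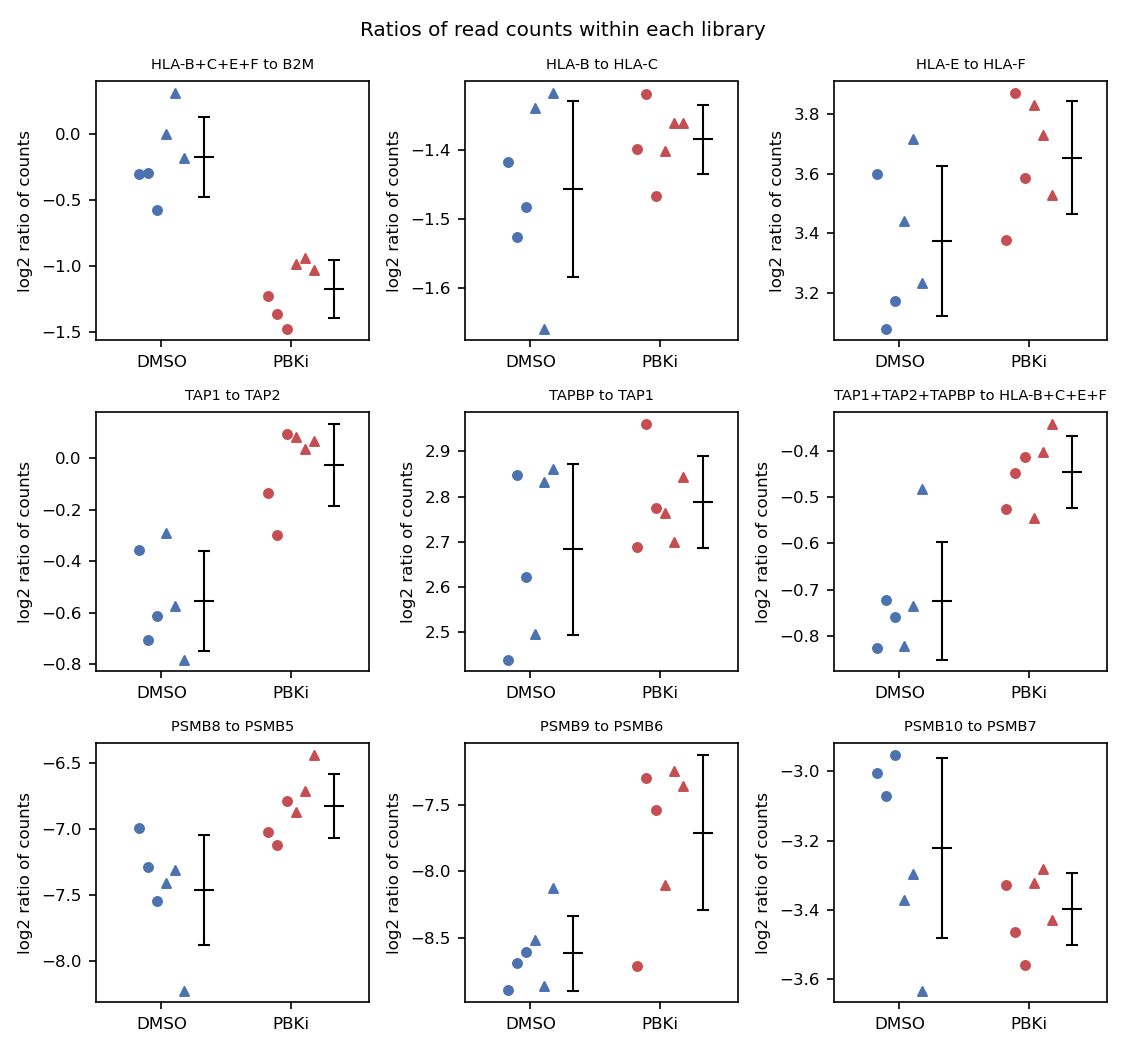
The log2 ratio of raw read counts within each library (y axis) for 9 ratios, with circles for replicates 1 to 3, triangles for replicates 4 to 6, and the mean ± SD of 6 libraries beside each group. The heavy chain to B2M ratio is lower in every PBKi library than in any DMSO library, and the TAP1 to TAP2 ratio is higher in 5 of the 6 PBKi libraries than in any DMSO library.

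TAP1 (ENSG00000168394, chr6:32812986-32821593, minus strand) and TAP2 (ENSG00000204267, chr6:32789610-32806516, minus strand) encode the 2 chains of a single transporter but did not change alike. TAP1 lay between 10.5 and 12.7 CPM in DMSO (median 10.9) and between 13.2 and 16.0 in PBKi (median 15.2). The groups did not overlap, and the means of 11.3 ± 1.01 and 15.0 ± 1.00 CPM (SD, n = 6 each) gave a 1.32-fold rise (log2 fold change 0.40, standard error 0.076, adjusted p = 0.0004 from edgeR; two-sided exact permutation test, p = 0.00216). Each set showed the rise, by 0.36 on the log2 scale for replicates 1 to 3 (adjusted p = 0.0112) and 0.45 for replicates 4 to 6 (adjusted p = 0.0144).

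TAP2 overlapped between the groups, with 15.2 to 18.2 CPM in DMSO around a median of 16.5, and 13.8 to 16.7 in PBKi around a median of 15.3. Its log2 fold change was -0.12 (95% interval -0.27 to 0.02, adjusted p = 0.158 from edgeR; two-sided exact permutation test, p = 0.0606). The interval excludes a rise of the size of TAP1. The log2 ratio of TAP1 to TAP2 reads was -0.55 ± 0.19 in DMSO and -0.03 ± 0.16 in PBKi (SD, n = 6 each). It was higher in PBKi by 0.53 (standard error 0.10; two-sided exact permutation test, p = 0.00433, adjusted 0.0146), by 0.44 in replicates 1 to 3 and by 0.61 in replicates 4 to 6.

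Both genes share exon bases with another annotated gene, 21.5% of the canonical transcript of TAP1 with the antisense gene PSMB8-AS1 and 35.8% of that of TAP2 with a gene on the same strand. Reads on exons of both genes may have been left uncounted, and whether this holds for the antisense overlap of TAP1 depends on the strand setting of the counting. In the promoters shown above, both TAP genes hold a pair of AANNGAAA matches, the kappaB form is present in TAP1 and not in TAP2, and TGACG is present in TAP2 and not in TAP1.

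TAPBP (ENSG00000231925, chr6:33267471-33282061, minus strand), which encodes tapasin, rose as well. It lay between 64.8 and 80.5 CPM in DMSO (median 73.2) and between 98.1 and 115 in PBKi (median 103), with no overlap. The means of 73.0 ± 5.85 and 104 ± 5.93 CPM (SD, n = 6 each) gave a 1.43-fold rise (log2 fold change 0.51, standard error 0.059, adjusted p = 2.46e-06 from edgeR; two-sided exact permutation test, p = 0.00216). On the log2 scale the rise was 0.54 for replicates 1 to 3 (adjusted p = 7.76e-06) and 0.49 for replicates 4 to 6 (adjusted p = 0.00143). In TAPBP, 42.5% of the stretches of 40 bases occur in transcripts of other genes, though exons of no other counted gene overlap its canonical transcript. Part of its reads may not have been placed, and how many was not measured.

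TAPBP against TAP1, as a log2 ratio of reads, did not pass the test (difference 0.11, standard error 0.088; two-sided exact permutation test, p = 0.26, adjusted 0.26). Against the heavy chains, the summed reads of TAP1, TAP2 and TAPBP rose, with a log2 ratio of -0.72 ± 0.13 in DMSO and -0.45 ± 0.08 in PBKi (SD, n = 6 each; difference 0.28, standard error 0.060; two-sided exact permutation test, p = 0.00649, adjusted 0.0146). DMSO replicate 6 lay inside the PBKi range.

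NLRC5 (ENSG00000140853, chr16:57023397-57117443, plus strand), the class I transactivator, had the largest log2 fold change of the 9 members. It had 23 to 58 reads per library in DMSO and 127 to 352 in PBKi. This was 1.59 to 3.46 CPM in DMSO (median 2.20) and 9.54 to 14.9 in PBKi (median 12.4), so every PBKi library was far above every DMSO library. The means of 2.34 ± 0.657 and 12.2 ± 1.92 CPM (SD, n = 6 each) gave a 5.41-fold rise (log2 fold change 2.44, standard error 0.15, adjusted p = 9.27e-10 from edgeR; two-sided exact permutation test, p = 0.00216). It was larger than the log2 fold change of 99.1% of genes tested. Separate fits gave log2 fold changes of 2.49 for replicates 1 to 3 (adjusted p = 7.52e-08) and 2.42 for replicates 4 to 6 (adjusted p = 1.06e-05).

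CIITA, a related NLR protein that is the transactivator of class II genes, did not pass the test at 3 to 29 reads per library (log2 fold change -0.11, 95% interval -0.66 to 0.44, adjusted p = 0.765), and its sign turned with limma-voom. NLRC5 against CIITA, as a log2 ratio of reads, was at 1.65 ± 0.60 in DMSO and 3.98 ± 0.27 in PBKi (SD, n = 6 each). It differed by 2.33 (two-sided exact permutation test, p = 0.00216), a comparison chosen after the values were seen.

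The changes in replicates 1 to 3 and 4 to 6 were also compared directly. No member differed, the lowest unadjusted p being 0.356 for B2M, and no gene of all tested passed (0% after adjustment with edgeR). At an unadjusted p under 0.05 there were 700 genes with edgeR and 743 with limma-voom, which also called 0 after adjustment.

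Levels of different genes were set side by side per length, as CPM per kilobase of canonical transcript (RPKM). In DMSO the order was B2M at 202 ± 34.6 RPKM, HLA-C at 64.4 ± 6.50, HLA-B at 23.5 ± 1.57, TAPBP at 21.1 ± 1.69, HLA-E at 11.3 ± 0.865, TAP1 at 4.22 ± 0.376, TAP2 at 2.95 ± 0.180, HLA-F at 1.87 ± 0.261 and NLRC5 at 0.345 ± 0.0968 (SD, n = 6 each). HLA-B and TAPBP overlapped in DMSO and could not be ranked, whereas in PBKi TAPBP lay at 28.4 to 33.4 RPKM, above HLA-B at 23.9 to 27.9. NLRC5 reached 1.81 ± 0.283 RPKM in PBKi, where it overlapped HLA-F at 1.73 ± 0.198. With the union of all annotated exons as length, the DMSO level of HLA-B was 7.80 RPKM, below TAPBP at 11.0 and HLA-E at 9.85, so the rank of HLA-B depends on the transcript model.

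**Figure D4:**
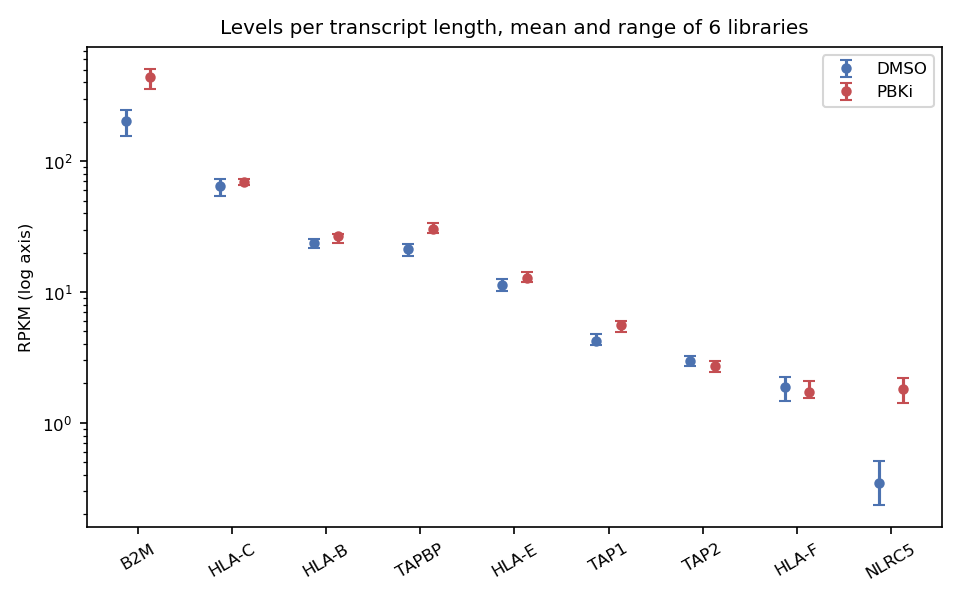
Level per transcript length in RPKM (y axis, log scale) of the 9 members in DMSO and PBKi, as the mean with bars from the lowest to the highest of 6 libraries. B2M is highest in both groups, and NLRC5 is lowest in DMSO at 0.345 and overlaps HLA-F in PBKi.

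The 9 members did not vary as a block within groups. Over the 36 pairs of members, the Pearson correlation of log2 CPM after centring on group means over 12 libraries ranged from -0.64 for B2M and TAPBP to 0.65 for HLA-B and HLA-E, with a median of -0.07, and 13 pairs were above 0. These libraries share their replicate sets, and the correlations are a description. The genes most like the mean centred member profile were TCEAL3 (r = 0.88), CD2BP2 (0.86), SHISA4 (0.84), GNPTG (0.82) and FKBP2 (0.80), over 12 libraries and out of 9984 candidates.

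Beyond the members, 69 genes of class I presentation and its control were listed in 7 groups. Of the 53 that could be tested, 12 rose and 9 fell, against the background of 20.1% and 21.5% given above. Among 9 tested class I-like molecules and ligands of the NKG2D receptor, 2 rose and 0 fell (median -0.04). MR1, which presents vitamin B metabolites to MAIT cells, rose from 5.57 to 11.1 CPM (log2 fold change 0.99, adjusted p = 1.89e-07), and HFE, the iron-sensing class I-like protein that pairs with beta-2 microglobulin, from 11.3 to 14.6 CPM (0.35, adjusted p = 0.00196). The stress ligands MICA, MICB, ULBP1, ULBP2 and ULBP3 did not pass the test, with log2 fold changes from -0.22 to 0.03. ULBP1 was called lower without DMSO replicate 3 or 5 (adjusted p = 0.0345 and 0.0287). Fits with a term for replicate number (adjusted p = 0.0191) or replicate set (adjusted p = 0.0305) also called ULBP1 lower.

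Of 11 genes for peptide loading and trimming, 3 rose and 2 fell (median 0.04). The risers were TAPBPL, the tapasin-related peptide editor (log2 fold change 0.75, adjusted p = 0.00023), and the aminopeptidases that trim peptides in the endoplasmic reticulum, ERAP1 (22.4 to 37.1 CPM, log2 fold change 0.74, adjusted p = 1.54e-06) and ERAP2 (0.54, adjusted p = 0.043). LNPEP, an endosomal aminopeptidase, fell (-0.23, adjusted p = 0.0242), as did PDIA3, the disulfide isomerase of the loading complex (-0.15, adjusted p = 0.0339). The chaperone gene CALR did not pass (-0.12, adjusted p = 0.0678), but was called lower with DESeq2 (adjusted p = 0.0307) and limma-voom (adjusted p = 0.0488). Fits with a term for replicate number (adjusted p = 0.0243) or replicate set (adjusted p = 0.0488) also called CALR lower. The calls of TAPBPL and ERAP1 were kept with any single library left out. ERAP2 had as few as 8 reads in a DMSO library and at least 26 in each PBKi library, so the PBKi libraries alone met the filter. ERAP2 lost its call without DMSO replicate 1, 4, 5 or 6 or PBKi replicate 1, 3 or 5 (adjusted p up to 0.102). LNPEP lost its call without DMSO replicate 2 or 6 or PBKi replicate 1, 2, 3 or 4 (adjusted p up to 0.0666). PDIA3 kept its call only without DMSO replicate 3 or 5 or PBKi replicate 2, and lost it in the other 9 fits (adjusted p up to 0.115).

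Immunoproteasome subunits replace the constitutive catalytic subunits after interferon, and of the 3 such subunits PSMB8 and PSMB9 had few reads, whereas PSMB10 had 138 to 518 per library. PSMB8 had 4 to 21 reads per library in DMSO and 13 to 26 in PBKi and rose (log2 fold change 0.59, adjusted p = 0.0299). That call was lost with the Wald test of DESeq2 (adjusted p = 0.0667), with no filter on low counts (adjusted p = 0.112), and without DMSO replicate 3 or 6 or PBKi replicate 6 (adjusted p up to 0.0628). PSMB9, the neighbour of TAP1 on the opposite strand, had 2 to 13 reads and was too low to test in the fit, and PSMB10 did not pass (-0.15, adjusted p = 0.228), except without DMSO replicate 6 (adjusted p = 0.0402) and in replicates 1 to 3 alone (-0.31, adjusted p = 0.0107). The activator genes PSME1 (-0.21, adjusted p = 0.0356) and PSME2 (-0.25, adjusted p = 0.0154) fell, so that of 6 tested genes of this list 1 rose and 2 fell (median -0.03). PSME1 lost its call without any of DMSO replicates 1 to 4 or PBKi replicates 2, 3, 5 and 6 in turn (adjusted p up to 0.105), and its log2 fold change was -0.05 in replicates 4 to 6. PSME2 lost its call without PBKi replicate 5 or 6 (adjusted p up to 0.051). The constitutive PSMB5, PSMB6 and PSMB7 did not pass the test in 3 of 3 cases, with log2 fold changes from -0.13 to 0.06. PSMB6 was called lower without DMSO replicate 6 (adjusted p = 0.0263) and with DESeq2 (adjusted p = 0.048). Fits with a term for replicate number (adjusted p = 0.0316) or replicate set (adjusted p = 0.0443) also called PSMB6 lower.

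Within libraries, the log2 ratio of PSMB8 to PSMB5 was higher in PBKi by 0.63 (standard error 0.20; two-sided exact permutation test, p = 0.00649, adjusted 0.0146) and that of PSMB9 to PSMB6 by 0.91 (standard error 0.26; exact p = 0.0152, adjusted 0.0273). The PSMB8 difference was 0.29 for replicates 1 to 3 and 0.97 for replicates 4 to 6, and the PSMB9 difference 0.89 and 0.94. The PSMB10 to PSMB7 ratio did not pass (-0.18; exact p = 0.152, adjusted 0.195), and its sign differed between the sets, at -0.44 and 0.09.

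Of 13 transcription factors linked to class I genes, 3 rose and 3 fell (median -0.02). IRF1, the interferon regulatory factor that binds class I promoters, rose from 2.55 to 8.32 CPM with no overlap (log2 fold change 1.69, adjusted p = 3.42e-09). The other rises were small, NFKB1 at 0.19 (adjusted p = 0.00679) and NFYC at 0.13 (adjusted p = 0.039), the latter lost without DMSO replicate 1, 2 or 3 or PBKi replicate 3 or 4 (adjusted p up to 0.0793). The RFX, CREB/ATF and NFY partners of NLRC5 did not move together. NFYB fell (-0.41, adjusted p = 0.000151), RFX5 fell (-0.33, adjusted p = 0.00131) and NFYC rose as given above. RFXAP, RFXANK, NFYA, CREB1 and ATF1 did not pass, with log2 fold changes from -0.18 to 0.10. ATF1 was called lower without DMSO replicate 5 (adjusted p = 0.00367) and in replicates 1 to 3 alone (adjusted p = 0.0214). Fits with a term for replicate number (adjusted p = 0.0282) or replicate set (adjusted p = 0.0257) also called ATF1 lower. EZH2, a histone methyltransferase, fell (-0.23, adjusted p = 0.00486).

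Of 8 tested genes for degradation and sorting of class I, 2 rose and 2 fell (median -0.01): the membrane ubiquitin ligase MARCHF8 (0.33, adjusted p = 0.00893) and the signal peptide peptidase HM13 (0.29, adjusted p = 0.000264) rose, and the ubiquitin conjugase UBE2J1 (-0.22, adjusted p = 0.002) and its partner ligase SYVN1 (-0.15, adjusted p = 0.0164) fell. SYVN1 lost its call without DMSO replicate 2 or PBKi replicate 4 (adjusted p up to 0.0606). The log2 fold change of MARCHF8 was 0.54 in replicates 1 to 3 (adjusted p = 8.74e-05) and 0.14 in replicates 4 to 6 (adjusted p = 0.383). Most class II genes had too few reads to test, with 3 of 12 tested and HLA-DRA at no more than 1 read in any library, whereas HLA-DMA had 39 to 152 reads per library. HLA-DQB1 was called higher, at 3 to 20 reads per library in DMSO and 16 to 38 in PBKi (log2 fold change 0.96, adjusted p = 0.00169). Its reads reached the filter only through the PBKi libraries, the group where it was higher, so this call is weak support. HLA-DMA and CIITA did not pass the test (median 0.08 over the tested genes of this list).

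**Figure D5:**
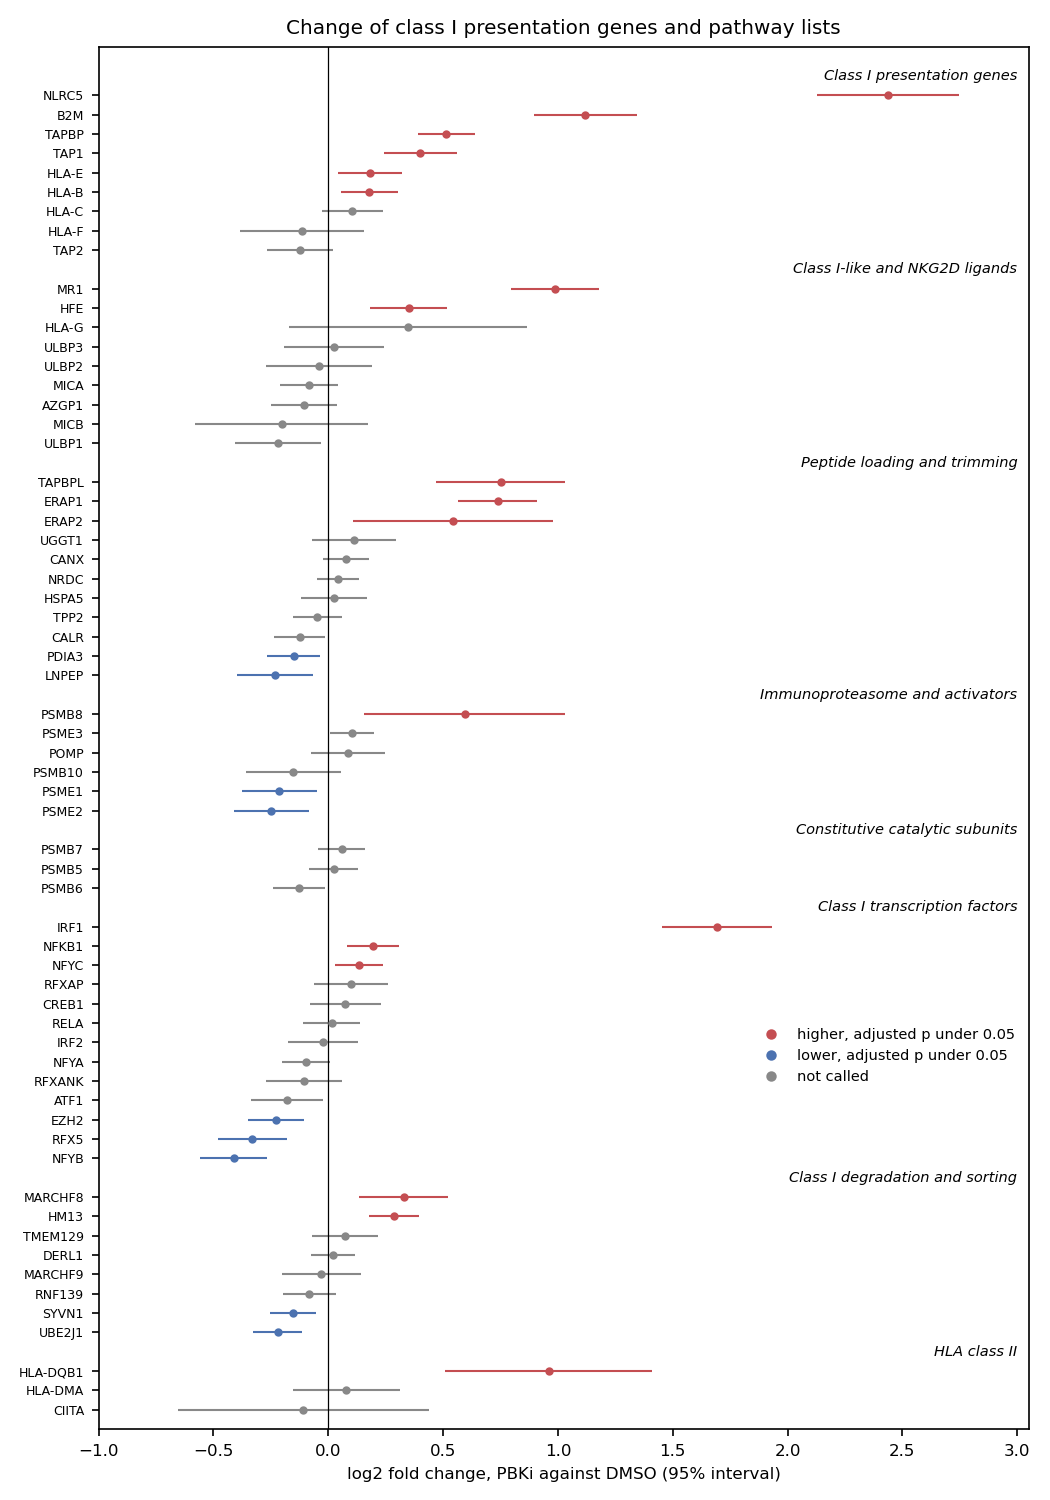
Log2 fold change of PBKi against DMSO (x axis) with its 95% interval for the 9 members and the 53 tested genes of 7 pathway lists, coloured red where higher, blue where lower and grey where not past an adjusted p of 0.05. NLRC5 at 2.44 and IRF1 at 1.69 lie farthest to the right, and most other intervals lie near 0.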

How the data were processed

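RNAseq counts of 12 C4-2 libraries, 6 DMSO and 6 PBKi, were analysed. Per the labels and the study's methods, the authors aligned reads (single-end, 40 bases) to GRCh37 with TopHat2 2.0.4 and counted reads per gene with HTSeq 0.5.3p9, and they compared groups with DESeq 1.10.1; the deposited values are raw counts per lane. The 47 lane tables were summed by library (3 lanes for DMSO replicate 5, 4 for the others), and the rows that name no gene were left out (reads outside genes, 5.74% to 9.30% of uniquely aligned reads, and ambiguous reads, 3.87% to 4.35%). A gene was tested if 6 or more libraries held 10 or more of its counts (14505 of 54127), with edgeR 4.0.16 in R 4.3.3, by TMM normalisation and the quasi-likelihood test with no covariate, with Benjamini-Hochberg adjustment of p-values over all genes tested at 0.05. The procedure was tested on simulated data. CPM use TMM library sizes, and exact permutation tests over 924 divisions of 12 libraries used log2 CPM (prior count 2) or log2 count ratios (pseudocount 0.5). Gene coordinates and transcript lengths came from GENCODE mapped to GRCh37, and symbols matched 47098 of 54127 IDs. Promoters came from RefSeq (GRCh38.p14).

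Alternatives were RLE factors, DESeq2 1.42.0, limma-voom (limma 3.58.1), other count filters, replicate sets, a replicate block, lanes 6 to 8, stricter thresholds and leaving out each library. The length used for RPKM was varied after the data had been seen. All 9 members are named, and up to 4 called genes of each list with the largest change, plus PSMB8, PSMB9, PSMB10, IRF1 and CALR; PDIA3, NFKB1, NFYC and the genes that did not pass were named after their values were seen. The 5 genes most like the members needed a mean log2 CPM of at least 3. Members and lists were chosen with earlier results of these data known. Some listed genes are not reported here and were taken out of the lists and their counts. The labels name flow sorted cells, without a gate.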

Additional observations from a re-analysis of the deposited data

Results flagged for a closer look

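Of 36 sets of 6 values examined (9 members and 9 ratios in each group), 2 held a library far from the others, and chance marks about 1 in 20 such sets. TAPBP in PBKi replicate 6 was at 115.3 CPM, with the next library at 103.1. The log2 ratio of TAP1, TAP2 and TAPBP reads to heavy chain reads in DMSO replicate 6 was -0.48, with the next library at -0.72.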

How the results depend on the processing

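B2M, TAPBP and NLRC5 kept their direction and call under all 24 alternatives, with log2 fold changes of 1.06 to 1.18, 0.48 to 0.55 and 2.37 to 2.54. TAP1 (0.36 to 0.45) missed only a log2 fold change of at least 0.5. HLA-B (0.15 to 0.22) lost its call in 6 and HLA-E (0.15 to 0.23) in 8, among them no filter on low counts (adjusted p = 0.0586 and 0.0706). In replicates 4 to 6 alone, 1303 genes rose and 1216 fell, with 5 and 1 of the pathway lists. HFE, NFYB, NFKB1, EZH2, MARCHF8, HM13, UBE2J1 and HLA-DQB1 were among the pathway genes that lost their calls there, with signs kept. An adjusted p under 0.01 left 2073 lower genes and 4 in the pathway lists. A log2 fold change of at least 0.5 left 1278 higher and 626 lower genes, 3 members, and 7 higher and 0 lower pathway genes. Leaving out single libraries gave 5 to 12 lower pathway genes (5 without DMSO replicate 2), HLA-E to HLA-F ratio changes of 0.22 to 0.35 (past 0.05 without DMSO replicate 1 or 5 or PBKi replicate 1) and PSMB10 to PSMB7 changes of -0.26 to -0.12 (past 0.05 without DMSO replicate 6); the latter was -0.44 in replicates 1 to 3 alone and 0.090 in replicates 4 to 6 alone, and the cause was not tested. The PSMB9 to PSMB6 change was 0.64 with lanes 6 to 8 alone (exact permutation p = 0.169), which hold fewer reads. Same-numbered libraries correlated at 0.0887 to 0.299 (r of deviations from group means), all above 0. DMSO 2 was nearest to PBKi 3 and DMSO 5 to PBKi 4, each within its own replicate set, and the other DMSO libraries to their own number. Libraries may thus share structure by number or set, for which the main test had no term. The replicate block gave 3485 higher and 3803 lower genes, 6 members, 13 higher and 13 lower pathway genes, and a PSMB8 to PSMB5 change of 0.63 (exact permutation p = 0.0625). No value that passed its test turned in sign. Adding alternate-haplotype gene IDs could not be run, as the tables supplied pair none with these symbols. Genes with few reads, such as PSMB9, HLA-F and most class II genes, are limited by depth.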
